A study of Mus musculus with 4 samples.

Results

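The genes described here are 49 genes of the actin cytoskeleton and its motors, measured in alveolar epithelial cells of mice that differ in the small GTPase gene Cdc42 and in lung surgery. They were listed by name: 2 cytoplasmic actins, 7 proteins that bind actin monomers or turn filaments over, 8 subunits of the Arp2/3 complex, 4 capping proteins, 7 chains of non-muscle myosin II, 4 tropomyosins, 3 crosslinkers, 8 proteins of adhesions and stress fibres, 3 linkers to the membrane and 3 members of the calponin family. All 49 were present among the 17117 genes counted. Cells were taken as alveolar when Sftpc, the gene of surfactant protein C, made up at least 2% of their UMIs (unique molecular identifiers, each marking 1 captured mRNA molecule) or when they held at least 1 UMI of Cldn4, a tight-junction gene of cells between the type II and type I state, with Ptprc, Pecam1 and Col1a2 at 0. This rule kept 8129 of 10077 cells.

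There were 4 groups of 1 library each, from mice labelled as postnatal day 80. The controls carried Sftpc-CreER, the Rosa26-mTmG reporter and Cdc42flox/+, that is, 1 floxed and 1 normal allele. The Cdc42 AT2 null mice carried the same driver and reporter with Cdc42flox/-, so that no intact allele should remain once Cre has acted. Every mouse had 4 doses of tamoxifen, and cells turned green by Cre were sorted and sequenced from their 3′ ends after sham treatment or on day 21 after pneumonectomy (PNX, removal of part of the lung). Cre in this design acts in any cell that expressed Sftpc when tamoxifen was given. The sources used here do not give how many mice went into a library, so differences between mice cannot be told apart from those between groups. Below, the groups are called control sham and control PNX, then null sham and null PNX, and where 4 values stand in a row they follow this order. Surgery below means PNX, and without surgery means sham treatment.

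Actin exists as free monomers and as polar filaments. Profilin and the thymosins hold the monomers, cofilin and destrin cut and depolymerise old filaments, the Arp2/3 complex starts branches, and capping proteins stop growth at the fast-growing end. Tropomyosins coat filaments, alpha-actinins and filamins join them, and non-muscle myosin II pulls on them, which gives a flat or stretched cell its contractile bundles, the stress fibres. Cdc42 itself is a switch that starts Arp2/3-driven branching through WASP proteins, and serum response factor (SRF), with cofactors held in check by actin monomers, drives many actin genes through a promoter element called the CArG box. In the alveolus, cuboidal type II cells flatten strongly as they become type I cells.

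The promoters of the members give the sequence side of that last link. RefSeq promoters of build GRCm38.p6 (mm10), read over the 250 bases before the start of transcription, were available for 48 of the 49 members. The member without a listed promoter was Actb, so it was not read for a box. A CArG box (CC, then 6 bases of A or T, then GG, the same pattern on either strand) was found for 7 of these 48 genes, or 14.6%: Actg1, Arpc4, Cnn2, Lima1, Myl6, Myl9 and Vcl. Over all genes with a promoter, 439 of 27025 held one, or 1.62%. A match is a description of letters, not a measured binding site. The stretches around the box are shown for the 4 of these 7 genes with the largest null PNX to control PNX ratios, with the box in capitals and the coding direction left to right.
Actg1 (chr11:120348531-120348630, minus strand): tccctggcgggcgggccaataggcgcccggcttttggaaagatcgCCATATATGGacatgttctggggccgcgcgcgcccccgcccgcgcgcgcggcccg
Arpc4 (chr6:113377863-113377917, plus strand): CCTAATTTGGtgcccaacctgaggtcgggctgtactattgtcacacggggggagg
Cnn2 (chr10:79988499-79988598, plus strand): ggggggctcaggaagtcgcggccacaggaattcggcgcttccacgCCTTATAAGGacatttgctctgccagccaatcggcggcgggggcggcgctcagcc
Myl6 (chr10:128493010-128493104, minus strand): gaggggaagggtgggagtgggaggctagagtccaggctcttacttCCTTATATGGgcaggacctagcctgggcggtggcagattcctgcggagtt
The box starts 90 bases before the start of Actg1, 56 before that of Cnn2 and 50 before that of Myl6. The Arpc4 box lies at the far edge of its window, 250 bases before the start, where the annotation also places the beginning of the neighbouring gene Tada3 on the other strand. The Myl6 stretch belongs to 1 of its 2 listed starts and lies inside the annotated gene. Members without a box in this window can carry one elsewhere.

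The alveolar cells numbered 1669 of 2111 in control sham, 1972 of 2252 in control PNX, 2630 of 3344 in null sham and 1858 of 2370 in null PNX. Their summed UMIs came to 8145379, 9977520, 14528959 and 20914459, and the median per cell was 4763, 4826, 5129 and 10595, so null PNX cells were the deepest. The cells carried type II markers, with 10 of 10 listed genes detected in every library and a summed level of 212847, 195784, 152879 and 128030.0 CPM in the order above. Sftpc, by which cells were picked, is among the 10 and gave 128230, 122766, 68513 and 60946 CPM of these sums. The median share of Sftpc was 12.7%, 12.1%, 6.38% and 6.24% of a cell's UMIs. Near the 2% limit, 46, 11, 38 and 32 cells with 1 to 2% Sftpc were left out and 3, 20, 185 and 32 cells with 2 to 3% were kept. Cells with Cldn4 numbered 0, 3, 69 and 998, and 424 of those in null PNX entered through Cldn4 alone. Cdc42 itself was at 184, 226, 265 and 405 CPM, but tags from the 3′ end of its mRNA do not show whether the floxed sequence was removed. Of all cell barcodes, 54 occurred in more than 1 library, 30 of them among alveolar cells.

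Levels below are counts summed over a library's alveolar cells and given as counts per 1000000 UMIs (CPM). At this depth a count of 3, taken as the floor, stands for 0.368, 0.301, 0.206 and 0.143 CPM. A member is called higher or lower where the ratio of 2 levels is at least 1.5 (or at most its inverse), the exact 95% interval of the ratio leaves out 1, and the mean level is at least 10 CPM. The intervals cover counting error only. Because each group is 1 library, differences could not be tested and carry no check between replicates. Mouse, day of preparation and depth cannot be told apart from genotype or surgery.

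Across the 4 libraries, 37 of the 49 members had the same order of levels: lowest in control sham, then control PNX, then null sham, and highest in null PNX. These 37 were all among the 46 members whose mean over the libraries reached 10 CPM, a share of 80.4%, and of all 7060 genes with that mean 23.1% had the order. Among the 12 exceptions, Flna, Actn4, Vcl and Myl9 had null sham at the top and null PNX next. Myh14 and Rdx, the heavy chain of myosin IIC and the membrane linker radixin, were at their lowest in null PNX, and Arpc1a was higher in both sham libraries than in either PNX library. The plot of levels shows these orders gene by gene.

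**Figure D1:**
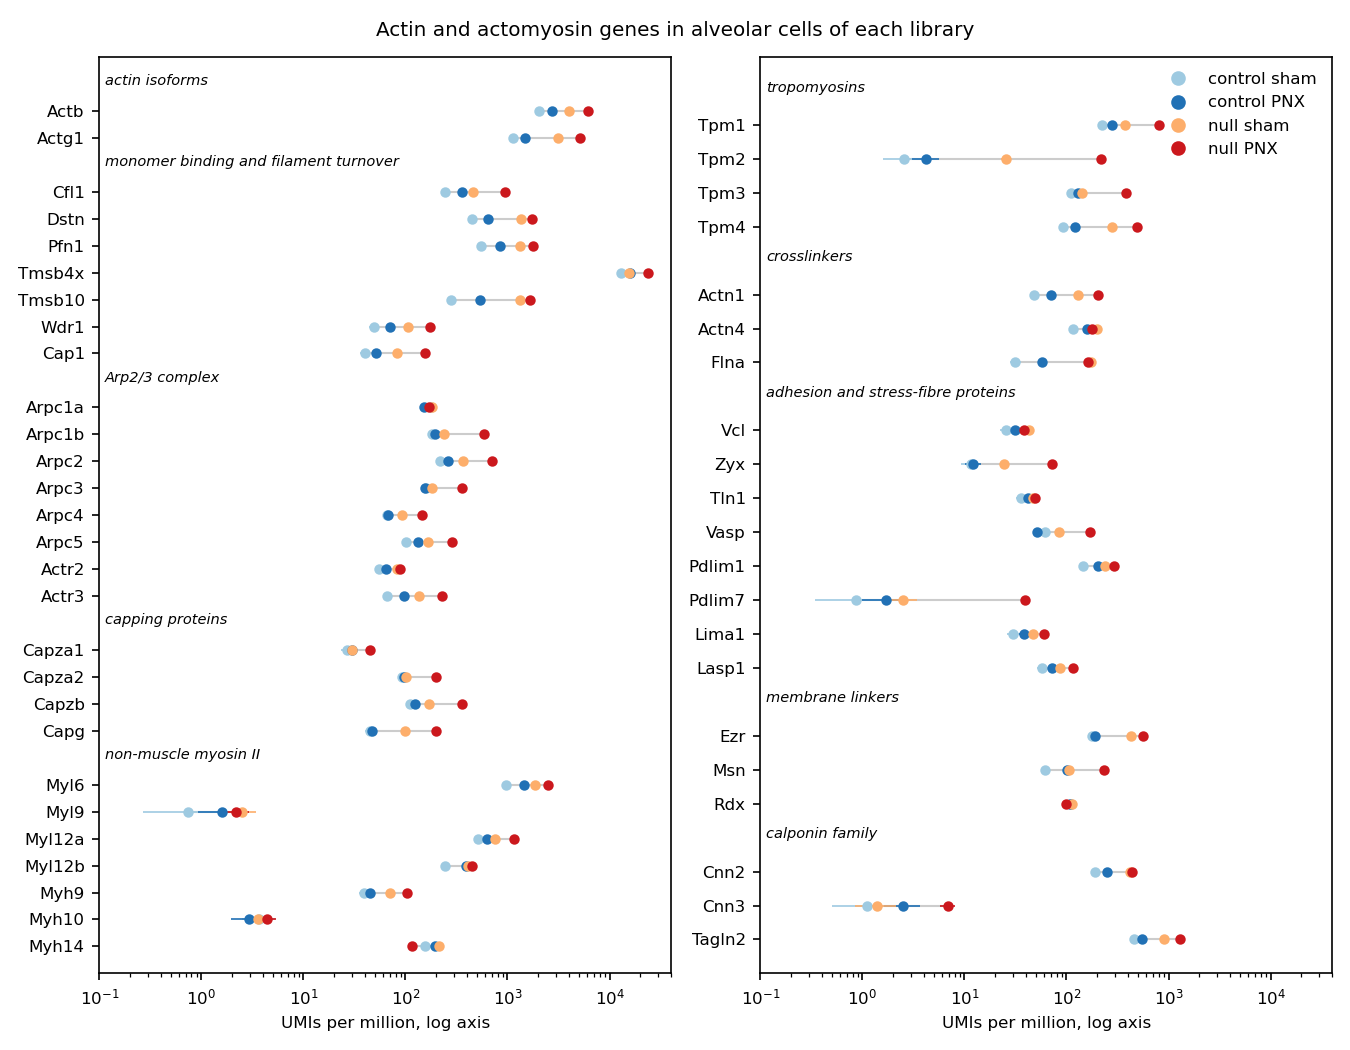
Level of each member in the alveolar cells of the 4 libraries, in CPM on a log axis, grouped by role. Each point is 1 library, coloured bars are exact 95% Poisson intervals (mostly smaller than the points) and grey lines join the lowest and highest level; most genes run from control sham on the left to null PNX on the right, and Tpm2 spans 2.58 to 219.

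The same order was seen cell by cell. Tmsb4x, which encodes thymosin beta 4, outweighed all other members together in control cells and was left out of this sum. The other 48 members made up a median of 0.917% of a cell's UMIs in control sham (5th to 95th percentile 0.595 to 1.62%), 1.24% in control PNX, and 1.83% and 2.57% in the 2 null libraries. With Tmsb4x the medians were 2.18%, 2.80%, 3.26% and 4.79%. Cells above the 95th percentile of control sham made up 20.9% (19.1 to 22.8) of control PNX (exact 95% interval), 65.2% (63.4 to 67.0) of null sham and 86.1% (84.5 to 87.7) of null PNX cells, against 5.03% in control sham by construction. The distributions overlapped, and most cells of both null libraries lay above that limit.

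**Figure D2:**
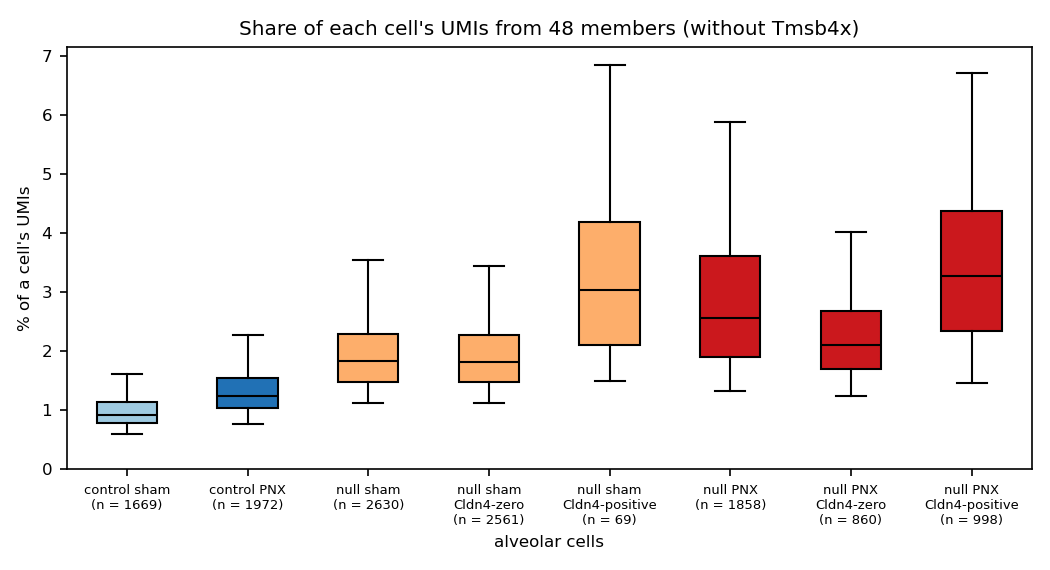
Share of each alveolar cell's UMIs that came from 48 members (all but Tmsb4x), in percent, by library and, for the null libraries, by Cldn4 class. Boxes show the quartiles and median over cells and whiskers the 5th and 95th percentiles; the median is 0.917% in control sham and 2.57% in null PNX, where the Cldn4-positive cells are at 3.28% and the Cldn4-zero cells at 2.11%.

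Most members were higher in the null than in the control mice without surgery. Null sham over control sham, 31 of 45 measured members were higher and 0 lower, and all 45 ratios were above 1. Over all 6806 genes measured, 14.3% were higher and 3.98% lower. The median log2 ratio was 0.77 for the members and 0.17 for all genes. With median-of-ratios scaling, which takes that common shift out, 26 members were higher and 0 lower, against 8.07% and 6.43% of all genes. Among the 31 were both actins, 6 of 7 monomer and turnover genes, 3 of 3 crosslinkers and 3 of 4 tropomyosins, but 3 of 8 Arp2/3 subunits. Tpm2, also among the 31, passed the minimum level only through null sham.

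More members were called between the genotypes after surgery, as were more of all genes. Null PNX over control PNX, 36 of 46 measured members were higher and 1, Myh14, was lower, where 34% of all 7267 genes measured were higher and 13% lower. Tpm2 and Pdlim7, among the 36, passed the minimum level only through null PNX. The median log2 ratio was 1.20 for the members and 0.28 for all genes, and with median-of-ratios scaling 31 members were higher and 1 lower, against 22.6% and 20.3% of all genes. This pair of libraries shares none with the sham pair. Of 45 members measured in both, 27 were higher in both, which is 87.1% of the 31 called without surgery and 77.1% of the 35 called after it. Over all genes measured in both, 548 were higher in both, or 58.4% of the 938 called without surgery and 26.7% of the 2052 called after it. Single ratios went either way between the pairs, with Flna, Tmsb10, Cnn2 and Actn4 smaller after surgery and Tpm2, Zyx and Capg larger. Myl12b, Actn4, Vcl and Pdlim1 were called only in the sham pair and Arpc1b, Arpc3, Arpc4, Capza1, Capza2, Myl12a, Tpm3 and Vasp only in the PNX pair. The difference between the pairs was not tested.

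**Figure D3:**
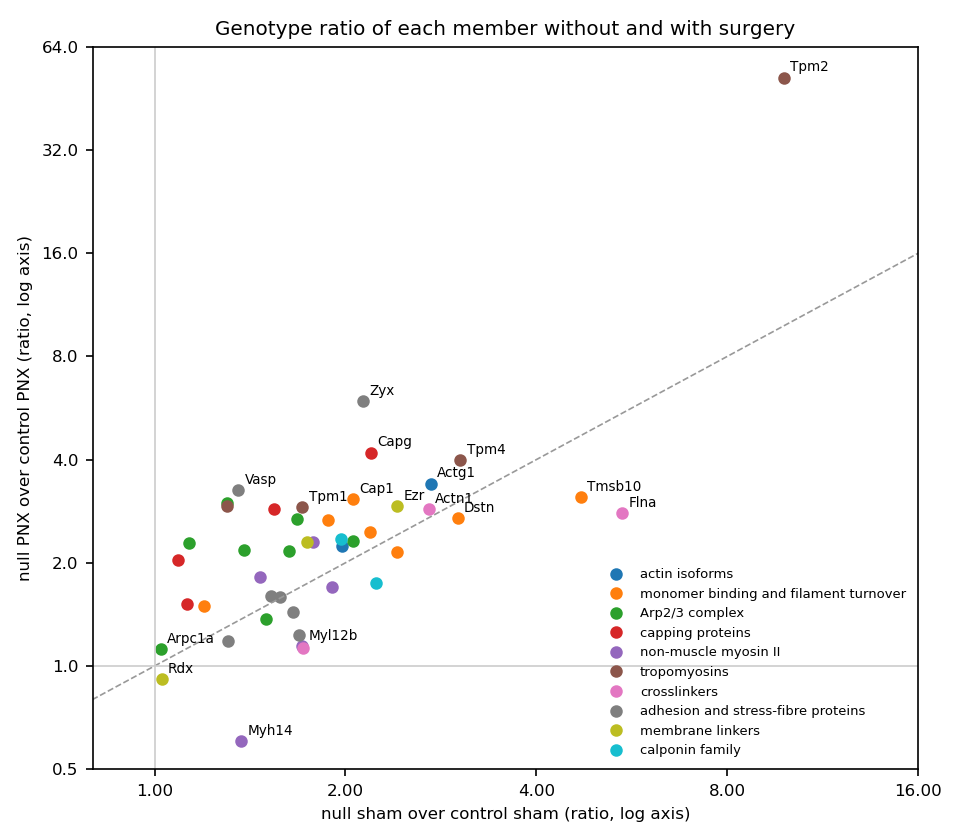
Ratio of null to control for each member measured in both pairs, without surgery on the horizontal and after surgery on the vertical axis (log axes), coloured by role. The dashed line marks equal ratios; Tpm2 is at 9.82 and 52.1, Tmsb10 and Flna lie below the line, and Myh14 is the only point well under 1 on the vertical axis, at 0.602.

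Few members were called after surgery in the control mice. Control PNX over control sham, 5 of 44 measured members were higher and 0 lower, where 5.83% of all 6758 genes measured were higher and 1.69% lower. The 5 were Pfn1, Tmsb10, Myl12b, Flna and Msn. With 2-fold in place of 1.5-fold 0 were called, and with median-of-ratios scaling 3 were, against 3.37% of all genes higher and 2.68% lower. The median log2 ratio was 0.32 for the members and 0.13 for all genes, and 40 of the 44 ratios were above 1.

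In the null mice more members, and more of all genes, were called after surgery than in the controls. Null PNX over null sham, 26 of 46 measured members were higher and 1, Myh14, was lower, where 29.5% of all 7270 genes measured were higher and 11.4% lower. Pdlim7, among the 26, passed the minimum level only through null PNX. The median log2 ratio was 0.61 for the members and 0.25 for all genes. With median-of-ratios scaling 17 members were higher and 1 lower, against 18.9% and 17.7% of all genes. Between cells with 0 Cldn4 UMIs the count was 11 higher and 2 lower of 45, where 21% of genes were higher and 11% lower, and the medians were 0.24 for the members and 0.17 for all genes. Of 44 members measured in both surgery comparisons, which share no library, 5 were higher in the control and 24 in the null pair, and Msn was the 1 gene in both lists, which is 20% of the 5 and 4.17% of the 24. Over all genes the overlap of these pairs was 126, or 34.6% of 364 and 7.53% of 1673.

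**Figure D4:**
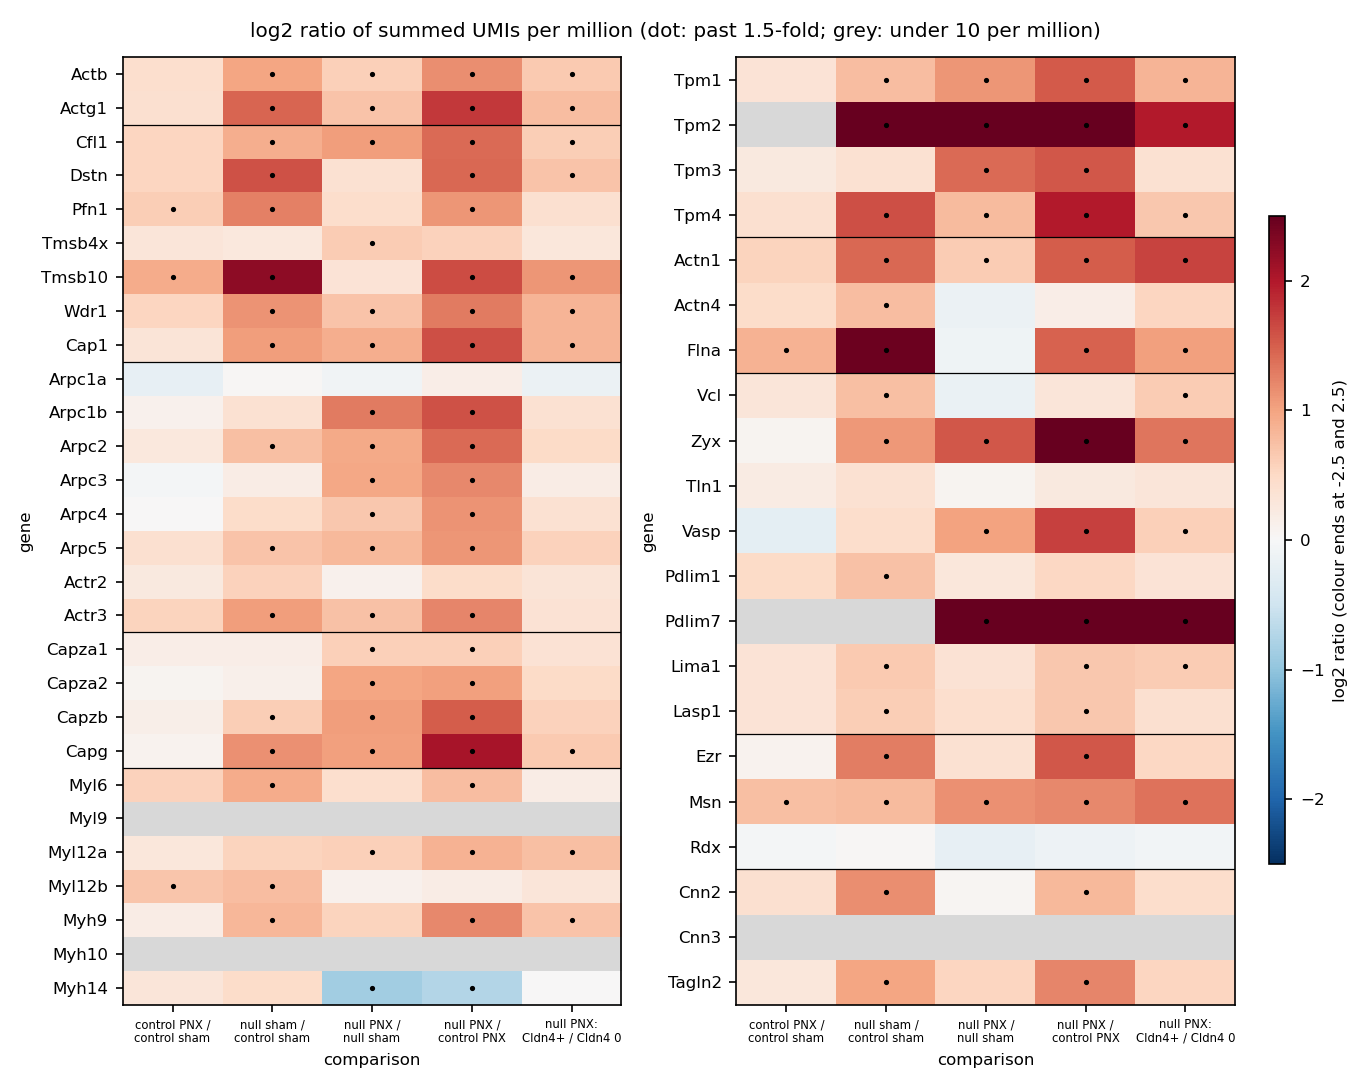
log2 ratio of summed levels for every member in the 5 comparisons, red for higher and blue for lower in the library or cells named first. Black dots mark called members and grey fields those under 10 CPM; the column of null sham over control sham holds 31 dots and that of control PNX over control sham 5, and Myh14 is the only blue field with a dot.

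The actins themselves, Actb (beta-actin, chromosome 5 142903115 to 142906754 on mm10) and Actg1 (gamma-actin, chromosome 11 120345690 to 120348542), were higher in both null libraries. Actb had 2046 CPM with sham and 2729 CPM with PNX in control mice, and 4039.7 and 6091 CPM in null mice. Actg1 had 1136 CPM with sham and 1495 CPM with PNX in control mice, and 3094 and 5089 CPM in null mice. Both thus stepped up library by library, and the genotype ratio without surgery was 1.97 (95% interval 1.94 to 2.01) for Actb and 2.72 (2.66 to 2.79) for Actg1. After surgery it was 2.23 (2.20 to 2.26) and 3.40 (3.35 to 3.46). In the control mice neither passed 1.5 after surgery, at 1.33 and 1.32. Because Actg1 differed more than Actb, its share of the UMIs of both was 35.7%, 35.4%, 43.4% and 45.5% in the same order, a share that no scaling can change.

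Among the proteins that handle monomers, Tmsb10 (thymosin beta 10, chromosome 6 72957347 to 72958748) had the largest genotype ratios, ahead of Pfn1 (profilin 1) and the filament-cutting pair Cfl1 (cofilin 1) and Dstn (destrin). Tmsb10 had 282 CPM with sham and 538 CPM with PNX in control mice, and 1324 and 1675 CPM in null mice. Its ratio was 1.91 (1.82 to 2.00) for surgery in controls, 4.70 (4.50 to 4.91) for genotype without surgery and 3.12 (3.03 to 3.21) after it. The largest step for Tmsb10 was thus between the sham libraries, and surgery in the null mice gave a ratio of 1.27. The last 300 bases of Tmsb10 transcripts share at least 90 bases at 97% identity with the gene Gm9844, so the files cannot say which of the 2 gave some of its tags.

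Tmsb4x, the main monomer store of most cells, behaved unlike Tmsb10. It had 12919 CPM with sham and 16025 CPM with PNX in control mice, and 15439 and 24006 CPM in null mice. Genotype without surgery gave 1.20 (1.19 to 1.20), and the null PNX to control PNX ratio of 1.498 fell just short of the limit of 1.5, so Tmsb4x was called only for null PNX over null sham, at 1.55 (1.55 to 1.56). Tmsb10 made up 2.13%, 3.25%, 7.90% and 6.52% of the UMIs of both thymosins, highest in null sham.

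Cfl1 and Dstn encode related depolymerising proteins and were both called in both genotype pairs, but only Cfl1 for surgery in the null mice. Cfl1 had 247 CPM with sham and 357 CPM with PNX in control mice, and 463 and 952 CPM in null mice, and Dstn had 446 CPM with sham and 648 CPM with PNX in control mice, and 1342 and 1749.8 CPM in null mice. Null sham over control sham was 3.01 (2.90 to 3.12) for Dstn and 1.88 (1.79 to 1.97) for Cfl1. For null PNX over null sham the order was reversed, with 2.06 (2.00 to 2.11) for Cfl1 and 1.30 (1.28 to 1.33), under the limit, for Dstn. The share of Dstn among the UMIs of both was 64.4%, 64.5%, 74.4% and 64.8%, so null sham stood apart from the 3 others.

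Profilin and the 2 cofilin partners followed the common order of libraries. Pfn1 had 546 CPM with sham and 835 CPM with PNX in control mice, and 1316 and 1794 CPM in null mice, with a control PNX to control sham ratio of 1.53 (1.47 to 1.59) at the edge of a call. Wdr1, a cofactor of cofilin, had 48.7, 71.0, 107 and 174 CPM in the same order. Cap1, which recycles monomers from cofilin, had 40.5, 50.9, 83.4 and 156 CPM. Null PNX over control PNX was 2.46 (2.27 to 2.67) for Wdr1 and 3.07 (2.79 to 3.37) for Cap1, and both were also called without surgery, at 2.19 and 2.06.

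The Arp2/3 complex, the branching machine that Cdc42 acts on through WASP proteins, had more subunits called in null PNX than in null sham. Of its 8 genes, 3 (Arpc2, Arpc5 and Actr3) were higher in null sham than in control sham, where 14.3% of all genes were. In null PNX 6 were higher than in control PNX and the same 6 higher than in null sham, where 34% and 29.5% of all genes were. The members not called after surgery were Arpc1a and Actr2. In the control mice surgery gave 0 calls among the 8, near the 5.83% of all genes called higher and 1.69% called lower. The ratios ran from 0.863 for Arpc1a to 1.48 for Actr3.

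Arpc1a and Arpc1b encode alternative versions of 1 subunit, and they differed from each other. Arpc1b (chromosome 5 145114215 to 145130705) had 183 CPM with sham and 196 CPM with PNX in control mice, and 238 and 589 CPM in null mice. Arpc1a had 177, 153, 181 and 171 CPM in that order. Between whole libraries Arpc1b was thus called only where null PNX entered, with 3.00 (2.86 to 3.14) over control PNX and 2.48 (2.38 to 2.57) over null sham. No ratio of Arpc1a in the 4 library comparisons passed 1.5 in either direction. The share of Arpc1b among the UMIs of both was 50.8%, 56.3%, 56.8% and 77.5%. In null PNX it was 73.5% in cells with 0 Cldn4 UMIs and 79.8% in Cldn4-positive cells. In null sham it was 56.3% in the Cldn4-zero and 68.3% (62.1 to 74.1) in the Cldn4-positive cells. Leukocytes of the same sort carried Arpc1b at 1049.7, 1108, 1292 and 1276 CPM, and the defining leukocyte gene Ptprc was at 0 in the alveolar cells by rule.

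The other subunits lay between these. Arpc2 had 217, 262, 364 and 702 CPM and Arpc3 160.1, 156, 182 and 356 CPM in the same order of libraries. Null PNX over control PNX was 2.68 (2.57 to 2.80) for Arpc2 and 2.29 (2.16 to 2.42) for Arpc3, and Arpc4, Arpc5 and Actr3 were at 2.18, 2.16 and 2.32. Actr2, which encodes the Arp2 subunit, had 55.0, 65.0, 82.3 and 89.2 CPM, and its null sham to control sham ratio of 1.497 was just under the limit. Actr3 shares its 3′ end with the gene Gm8822 by the measure given for Tmsb10.

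Capping proteins stop filaments from growing. All 4 listed were higher in null PNX than in control PNX (34% of all genes were) and than in null sham (29.5%), and 2 of the 4, Capzb and Capg, were higher in null sham than in control sham (14.3%). Capg (gelsolin-like capping protein, chromosome 6 72544391 to 72562983) had 44.7 CPM with sham and 47.5 CPM with PNX in control mice, and 98.1 and 199 CPM in null mice. Its levels were alike in the 2 control libraries and about equally spaced after that on a log scale, with 2.20 (1.96 to 2.47) for genotype without surgery, 2.03 (1.91 to 2.16) for surgery in the null mice and 4.19 (3.81 to 4.62) for null PNX over control PNX. Capzb, the beta subunit of capping protein, had 111, 124, 172 and 355 CPM, and its alpha partner Capza2 had 92.4, 97.4, 101 and 199 CPM. Capza2 was at 1.09 (0.997 to 1.19) without surgery and 2.04 (1.90 to 2.19) after it.

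Non-muscle myosin II is built from 2 heavy chains, each with a regulatory and an essential light chain. Of the 7 listed chains, 5 were measured; Myl9 (at most 2.48 CPM in any library) and Myh10 (at most 4.35) stayed under the minimum. The heavy chains went in opposite directions in null PNX. Myh9, of myosin IIA, had 39.7 CPM with sham and 45.2 CPM with PNX in control mice, and 70.5 and 104 CPM in null mice. Myh14, of myosin IIC (chromosome 7 44605803 to 44670843), had 156 CPM with sham and 193 CPM with PNX in control mice, and 213 and 116 CPM in null mice. Null PNX over control PNX was 2.31 (2.08 to 2.56) for Myh9 and 0.602 (0.567 to 0.640) for Myh14, and Myh14 was the only member called lower in any comparison between whole libraries.

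Myh14 was not lower in every null library. Null sham over control sham gave 1.37 (1.28 to 1.46) and surgery in control mice 1.24 (1.152 to 1.33), both above 1 and under the limit, whereas surgery in the null mice gave 0.545 (0.516 to 0.574). Thinned to 2000 UMIs a cell, the share of alveolar cells with a Myh14 UMI was 28.3%, 34.0%, 36.2% and 21.5% (19.6 to 23.5), which is the same picture without the difference in depth; unthinned it was 49.97%, 58.5%, 65.0% and 64.4%. Leukocytes, which should lack it, had a thinned share of at most 2.63%. Myh9 made up 19.9%, 18.8%, 24.5% and 46.4% of the UMIs of the 3 heavy chains. Within null PNX, Myh14 was at 116 CPM in the Cldn4-positive and 116 CPM in the Cldn4-zero cells, nearly the same in both classes.

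Of the light chains, Myl12b, which is regulatory, had 241 CPM with sham and 389 CPM with PNX in control mice, and 412 and 445 CPM in null mice, with 1.61 (1.53 to 1.70) for surgery in controls and 1.71 (1.62 to 1.80) for genotype without surgery but 1.14 (1.10 to 1.19) after it. The annotation gives this symbol to 2 overlapping genes. Its close relative Myl12a had 519.7, 632, 762 and 1149 CPM, and was called after surgery, at 1.82 (1.77 to 1.87), and just missed the limit without it, at 1.47. The essential light chain Myl6 had 978, 1464, 1862 and 2485 CPM, with 1.90 and 1.70 for genotype without and with surgery.

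Tropomyosins coat filaments and, by isoform, mark stress fibres. Tpm2 (chromosome 4 43514711 to 43523765), best known from muscle, was low in both controls and higher in both null libraries. It had 2.58 CPM with sham and 4.21 CPM with PNX in control mice, and 25.3 and 219 CPM in null mice. Counted as molecules, that is 21, 42, 368 and 4590 UMIs. Genotype gave 9.82 (6.33 to 16.1) without surgery and 52.1 (38.5 to 72.4) after it, and surgery in the null mice 8.66 (7.79 to 9.66). Between the control libraries the mean was under 10 CPM, so no call was made. Tpm2 passes the minimum only through the null libraries, so that its ratios are a description. Between Cldn4-zero cells the ratio was 5.97 (3.81 to 9.85) without surgery, with a mean under 10 CPM and no call, 19.3 (14.1 to 27.2) after surgery and 5.17 (4.43 to 6.05) for surgery in the null mice. Over alveolar cells of both Cldn4 classes, null PNX over null sham was 14.2 without the 5% of cells with most UMIs.

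More cells held Tpm2, not only more molecules. With each cell thinned to 2000 UMIs, 0.450% of control sham, 0.695% of control PNX, 2.58% of null sham and 22.2% (20.3 to 24.2) of null PNX cells had a Tpm2 UMI, from 1555, 1870, 2480 and 1759 cells deep enough. Unthinned the shares were 1.20%, 1.77%, 5.17% and 51.4%. Leukocytes of null PNX, taken as background, had 4.24% (1.72 to 8.55) when thinned, at a median of 3987 UMIs before thinning against 10595 in alveolar cells. In null PNX the alveolar share thus lay above the leukocyte share, beyond both intervals. In null sham the leukocyte share was 0.995% (0.121 to 3.55), which reaches past the alveolar value. In control sham and control PNX 0 of 114 and 0 of 85 leukocytes had Tpm2, with exact upper limits of 3.18% and 4.25%, and the alveolar shares there lay under those limits. Summed and unthinned, leukocytes held Tpm2 at 3.34, 6.20, 3.16 and 94.1 CPM in the 4 libraries. The null PNX leukocyte level, from 80 UMIs, lay above the 79.5 CPM of the Cldn4-zero alveolar cells of null PNX. How much of the alveolar Tpm2 level is background was not tested. Smooth-muscle and pericyte markers, 8 genes in all, summed to 1.96, 6.92, 1.58 and 2.49 CPM in the alveolar cells of the 4 libraries, with Acta2 at 0.861 CPM in null PNX.

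The other tropomyosins are found in most cells. Tpm4 had 92.2 CPM with sham and 122 CPM with PNX in control mice, and 280.0 and 487 CPM in null mice, with 3.04 (2.81 to 3.29) for genotype without surgery and 3.98 (3.75 to 4.22) after it. Tpm1 had 221, 279, 377 and 810.0 CPM and Tpm3 110.4, 130.3, 143 and 382 CPM. Tpm1 was called in both genotype pairs, at 1.71 and 2.90, and Tpm3 only after surgery, at 2.93 (2.76 to 3.11) against 1.30 (1.20 to 1.41) without it. Tpm2 made up 0.605%, 0.785%, 3.07% and 11.6% of all tropomyosin UMIs. Tpm3 shares its 3′ end with the gene Tpm3-rs7 by the measure given for Tmsb10.

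The crosslinkers were higher in null sham than in control sham for 3 of 3 genes, where 14.3% of all genes were. In null PNX Flna and Actn1 were higher than in control PNX, where 34% of all genes were. Between Cldn4-zero cells of the PNX libraries 1 of 3, Flna, was called higher, where 26.7% of all genes were. Flna (filamin A, which joins filaments into nets, chromosome X 74223461 to 74249820) had 31.6 CPM with sham and 57.7 CPM with PNX in control mice, and 172 and 161 CPM in null mice. Its ratio was 1.83 (1.58 to 2.13) for surgery in controls and 5.46 (4.80 to 6.23) for genotype without surgery, but 0.934 (0.887 to 0.984) for surgery in the null mice. Between Cldn4-zero cells that last ratio was 0.611 (0.564 to 0.661), a call in the lower direction. Flna was thus at its highest in null sham.

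Of the alpha-actinins, Actn1 is the form of stress fibres and adhesions and Actn4 a form of the cell edge. Actn1 (chromosome 12 80167547 to 80260371) had 48.1 CPM with sham and 71.1 CPM with PNX in control mice, and 130.4 and 203 CPM in null mice, and Actn4 had 115, 158, 197 and 178 CPM. Both were higher in null sham than in control sham, at 2.71 (2.43 to 3.03) and 1.71 (1.59 to 1.84). In null PNX they parted, with Actn1 at 2.86 (2.64 to 3.10) over control PNX and Actn4 at 1.13 (1.06 to 1.20). The share of Actn1 among the UMIs of both was 29.5%, 31.0%, 39.8% and 53.3%, and within null PNX it was 58.2% in Cldn4-positive and 38.3% in Cldn4-zero cells. The null PNX to null sham ratio of Actn1, 1.56 (1.48 to 1.65), depended on which cells were taken. It was 0.703 (0.644 to 0.766) between Cldn4-zero cells and 0.970 with the Sftpc rule alone. Over control PNX it was 1.23 (1.11 to 1.37) between Cldn4-zero cells, no longer a call, and 1.75 with the Sftpc rule alone.

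Among proteins of adhesions and stress fibres, Pdlim7 and Zyx stood out in null PNX. Pdlim7 (a PDZ and LIM domain protein of stress fibres, chromosome 13 55495795 to 55513676) had 0.859 CPM with sham and 1.70 CPM with PNX in control mice, and 2.48 and 38.9 CPM in null mice. These are 7, 17, 36 and 813 UMIs, of which 1 cell gave at most 1.72% in null PNX. The ratio was 15.7 (11.2 to 22.6) over null sham and 22.8 (14.2 to 39.4) over control PNX. Pdlim7 passes the minimum only through null PNX, so these ratios are a description. The control comparison and the sham genotype comparison were under 10 CPM and not called. With cells holding any of 9 further blood, vessel and stroma genes left out, null PNX over null sham was 27.0. Thinned to 2000 UMIs, 5.91% (4.86 to 7.12) of null PNX cells held a Pdlim7 UMI, against 1.82% (0.377 to 5.22) of null PNX leukocytes, with intervals that overlap. In the other libraries the alveolar shares were 0.193%, 0.428% and 0.484%, and the leukocyte shares 0.877%, 1.18% and 2.49%. Those leukocyte shares rest on 1 of 114, 1 of 85 and 5 of 201 cells. Leukocytes held Pdlim7 at 11.7, 8.27 and 18.9 CPM there, above the alveolar levels. In null PNX leukocytes held it at 24.7 CPM, under the alveolar 38.9 CPM. Whether the alveolar UMIs of any library are background was not tested. Unthinned the alveolar shares were 0.419%, 0.811%, 1.06% and 17.8%.

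Zyx (zyxin, recruited to stress fibres under load, chromosome 6 42349630 to 42360213) had 11.5 CPM with sham and 12.1 CPM with PNX in control mice, and 24.6 and 71.8 CPM in null mice. Its levels were alike in both controls, with 1.05 (0.796 to 1.39) for surgery, and separate in the null libraries, with 2.13 (1.69 to 2.70) and 5.92 (4.92 to 7.19) for genotype without and with surgery. Leukocytes carried Zyx at 189, 273, 218 and 118 CPM, above every alveolar value. Vasp, which elongates filaments at adhesions, had 61.6, 51.7, 83.6 and 169 CPM. It was called only where null PNX entered, at 3.26 (2.97 to 3.58) over control PNX, and surgery in the controls gave 0.839 (0.741 to 0.951), in the other direction.

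The remaining adhesion genes differed less. Vcl (vinculin) and Pdlim1 were called in the sham pair only, at 1.69 and 1.65 against 1.23 and 1.43 after surgery. Lima1 and Lasp1, both LIM proteins that bind filaments, were called in both genotype pairs, with ratios between 1.53 and 1.60. Tln1 (talin 1, which ties integrins to actin) was called in 0 of the 5 comparisons, and had 35.8, 41.5, 46.9 and 49.0 CPM.

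The membrane linkers ezrin, moesin and radixin tie filaments to the cell surface, and the 3 genes behaved differently. Ezr (chromosome 17 6738041 to 6782784), the epithelial form found in microvilli, had 179 CPM with sham and 191 CPM with PNX in control mice, and 432 and 561 CPM in null mice. Msn (chromosome X 96096042 to 96168552) had 60.9 CPM with sham and 102 CPM with PNX in control mice, and 106 and 235 CPM in null mice. Ezr thus split the libraries by genotype, at 2.41 (2.28 to 2.56) without and 2.93 (2.79 to 3.08) with surgery, and at 1.07 and 1.30 for surgery. Msn differed with both, with 1.68 (1.504 to 1.87) and 2.22 (2.09 to 2.35) for surgery in control and null mice and 1.74 (1.57 to 1.93) and 2.303 (2.15 to 2.47) for genotype. Between Cldn4-zero cells Msn was no longer called for null PNX, at 1.18 (1.08 to 1.27) over null sham and 1.20 (1.10 to 1.31) over control PNX. Rdx had 111, 108, 114 and 98.8 CPM and was called in 0 of the 5 comparisons. The share of Rdx among the UMIs of the 3 was 31.6%, 26.9%, 17.4% and 11.0%, and that of Msn 17.4%, 25.4%, 16.3% and 26.3%. Moesin is also the main linker of leukocytes, which had 345, 314, 416 and 348 CPM here.

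In the calponin family, Cnn2 and Tagln2, the forms found outside muscle, were measured and Cnn3 was not, with at most 6.89 CPM in null PNX. Cnn2 had 189 CPM with sham and 249.96 CPM with PNX in control mice, and 422 and 437 CPM in null mice, so that null sham and null PNX were nearly level. Tagln2 had 454, 555, 895 and 1299 CPM. Genotype without surgery gave 2.24 (2.11 to 2.37) for Cnn2 and 1.97 (1.90 to 2.04) for Tagln2, and after surgery 1.75 and 2.34. Neither was called for surgery in either genotype.

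Cldn4 divides the null PNX cells into 998 with at least 1 UMI and 860 with 0. In the Cldn4-positive cells 21 of 46 measured members were higher and 0 lower, where 10.6% of all 7339 genes measured were higher and 4.56% lower. The median log2 ratio was 0.55 for the members and 0.13 for all genes. With median-of-ratios scaling 14 members were higher and 0 lower, against 7.1% and 6.9% of all genes. The genes with the largest ratios were Pdlim7 at 10.8 (8.09 to 14.7), Tpm2 at 3.98 (3.67 to 4.32), Actn1 at 3.25 (3.00 to 3.52), Msn at 2.58 (2.40 to 2.76) and Zyx at 2.54 (2.24 to 2.88). Pdlim7, among the 21, passed the minimum only through the Cldn4-positive cells, so its ratio is a description. Of the Arp2/3 genes 0 of 8 were called, which is near the 10.6% of all genes for so short a list. Their ratios ran from 0.908 to 1.48, and 7 of the 8 were above 1.

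The levels behind these ratios were, for Pdlim7, 61.8 CPM in the Cldn4-positive and 5.72 CPM in the Cldn4-zero cells. For Tpm2 they were 316 CPM in the Cldn4-positive and 79.5 CPM in the Cldn4-zero cells, and for Actn1 284 CPM in the Cldn4-positive and 87.4 CPM in the Cldn4-zero cells. All lay above the matching level of control PNX, but by different margins: between Cldn4-zero cells, null PNX over control PNX was 19.3 for Tpm2, 3.10 (2.505 to 3.85) for Zyx, 1.86 (1.80 to 1.92) for Tmsb10, 1.72 (1.55 to 1.92) for Flna and 1.23 for Actn1. For null PNX over null sham Zyx was at 1.66 (1.41 to 1.94) between such cells. Tmsb10 was at 2146 CPM in the Cldn4-positive and 997 CPM in the Cldn4-zero cells, and Actg1 at 6133 CPM in the Cldn4-positive and 3583 CPM in the Cldn4-zero cells. In that comparison of Cldn4-zero cells, 28 of 45 members were higher and 1, Myh14, lower, where 26.7% of genes were higher and 12.4% lower. Tpm2, among the 28, passed the minimum there only through null PNX. Between the Cldn4-zero cells of the sham libraries, 29 of 44 were higher and 0 lower, where 13.8% were higher and 3.95% lower.

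Depth and the cell rule both bear on the Cldn4 classes. Positive cells had a median of 11812.5 UMIs and zero cells 9628.5, 346 of the positive cells held 1 Cldn4 UMI, and a cell of low Sftpc could enter only if it was positive. With every cell thinned to 2000 UMIs and classed again, 22 of 46 members were higher, where 15.7% of all genes were. With at least 2% Sftpc asked of both classes, 9 of 46 were higher, where 4% of genes were, and Pdlim7, Tpm2 and Actn1 were at 4.18, 2.52 and 1.87. With surfactant and mitochondrial genes left out of the total, 12 of 46 were, where 6.86% of genes were. Tpm2, Actn1, Flna, Zyx, Pdlim7 and Msn were called in every one of the 13 alternatives in which they were measured, and the ratio of Pdlim7 ran from 4.18 to 19.2 over them.

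The members also differed step by step with the number of Cldn4 UMIs. In 860 cells with 0, 495 with 1 to 2, 255 with 3 to 9 and 248 with 10 or more, the median share of the 48 members was 2.11%, 2.54%, 3.51% and 4.64% of a cell's UMIs. Pdlim7 went through 5.72, 15.7, 47.1 and 148 CPM, Actn1 through 87.4, 131, 232 and 569.9 CPM and Msn through 122, 175, 326 and 523 CPM. Beta-actin went through 4537, 5362, 7365 and 9873 CPM. Of 46 members, 43 were higher in each class than in the one before it and 1, Arpc1a, was lower each time, at 181, 173, 163 and 152 CPM. Of all 7339 genes measured, 30.1% were higher at each step and 13.8% lower. With cells thinned to 2000 UMIs, which leaves 3 classes, 38 of 46 members were higher at each step and 0 lower, where 31.3% of all genes were higher and 20.8% lower. Sftpc was at 84486 CPM in cells with 0 Cldn4 UMIs and 17827 in those with 10 or more, a difference that the cell rule fixes in part.

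**Figure D5:**
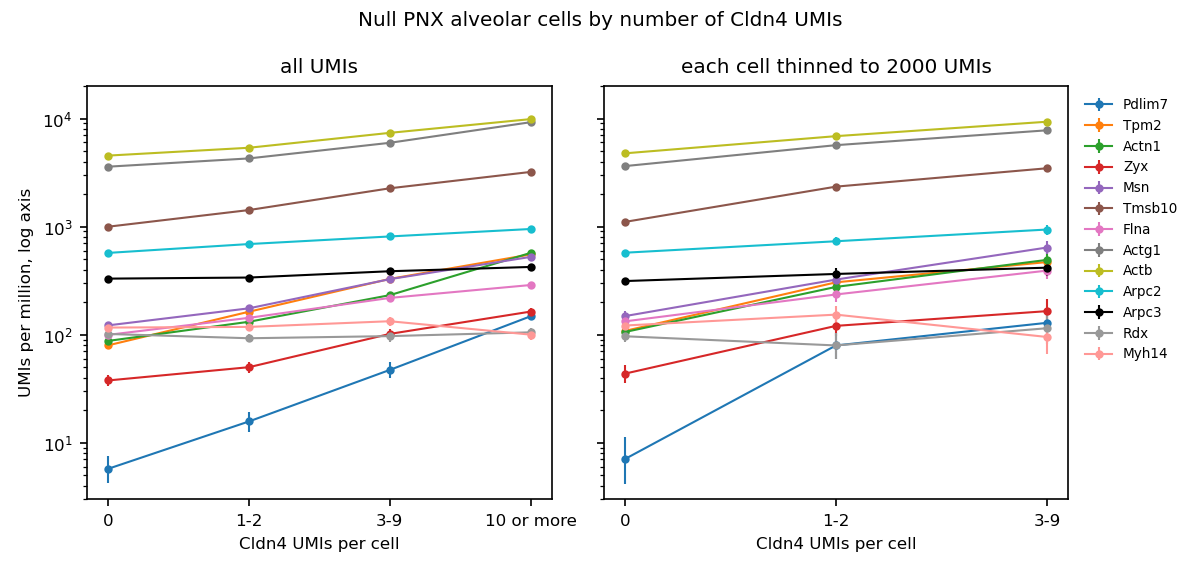
Levels of 13 members in null PNX alveolar cells by number of Cldn4 UMIs per cell, in CPM on a log axis, with all UMIs on the left and with each cell thinned to 2000 UMIs on the right. Points are sums over the cells of a class and bars exact 95% Poisson intervals; Pdlim7 climbs from 5.72 to 148 on the left, while Rdx and Myh14 end at 105 and 99.9.

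The null sham library held 69 Cldn4-positive cells, and the comparison was repeated there after this had been seen. Of 46 measured members, 28 were higher and 0 lower, where 11.7% of genes were higher and 5.67% lower, and the medians on the log2 scale were 0.72 and 0.13. Among the 28 is Myl9, a light chain of smooth and contractile cells, which passed the minimum only through the positive cells, at 23.0 CPM, and 84.6% of its 13 UMIs there came from 1 cell. Tpm2 was at 17.6 (14.2 to 21.8), Zyx at 3.12 (2.19 to 4.35) and Actn1 at 2.25 (1.90 to 2.65). Pdlim7 was at 14.2 CPM in these cells against 61.8 in the Cldn4-positive cells of null PNX. Thinned, 31 positive cells remained and the median of the members, 0.73, lay closer to that of all genes, 0.58. In these thinned cells 22 of 46 members were higher and 0 lower, where 6.54% of all genes were higher and 1.38% lower. Of 45 members measured in both libraries, 18 were higher in Cldn4-positive cells of both, which is 90% of the 20 called in null PNX and 66.7% of the 27 called in null sham. Over all genes the overlap was 309, or 52.1% of 593 and 40.8% of 758.

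Other genes of the same pathways were read from 6 lists of 86 genes that hold no member. In null sham over control sham 22 of 60 measured were higher and 1 lower, and in null PNX over control PNX 29 of 63 and 2. For surgery, 10 of 60 were higher and 0 lower in controls and 19 of 64 and 2 in the null mice. Between the Cldn4 classes of null PNX 16 of 65 were higher and 0 lower. Of all genes, 14.3% and 34% were higher for genotype without and after surgery. For surgery the shares higher were 5.83% in controls and 29.5% in the null mice, and the 19 of 64 lay near the latter. Between the Cldn4 classes the share higher was 10.6%. The shares of all genes that were lower were 3.98%, 13%, 1.69%, 11.4% and 4.56% in the same order. For null PNX over control PNX, Limk1, a kinase that turns cofilin off, was lower, at 0.339 (0.266 to 0.431). Fhl2, an SRF cofactor, had 0.123, 0.2005, 0.275 and 35.4 CPM, with 129 (50.1 to 474) for null PNX over null sham from 4 UMIs in null sham, the largest in that comparison. Srf itself was not called in the 4 comparisons between whole libraries. Between Cldn4-zero cells Srf was called lower for null PNX over control PNX. Gsn (gelsolin, which severs filaments) had 54.0, 70.7, 121 and 238 CPM, and Marcksl1, a linker of filaments to the membrane, 21.7, 24.9, 19.7 and 72.1 CPM. The 6 smooth-muscle actomyosin genes gave 0 calls in the 4 library comparisons, as all stayed under the minimum.

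Many of these genes are also high in blood cells, so markers of other cells are given beside the members. The 9 leukocyte markers summed to 126, 54.2, 121 and 146 CPM in the alveolar cells, with Ptprc at 0 by rule, against 10509, 8646, 10354 and 10073 CPM in Ptprc-positive cells of the same libraries with under 1% Sftpc (142, 97, 235 and 165 cells). In those leukocytes the 48 members took 3.17%, 3.06%, 3.56% and 3.57% of summed UMIs, and in the alveolar cells 1.00%, 1.34%, 2.08% and 3.13%. Macrophage markers summed to 30.2, 9.92, 33.5 and 68.8 CPM, fibroblast markers to 2.82, 1.60, 15.3 and 11.5 CPM, mesothelial to 0.123, 0.2005, 1.17 and 9.23 CPM, endothelial to 27.3, 21.1, 29.5 and 25.4 CPM and platelet markers, led by Pf4, to 9.82, 23.1, 30.2 and 22.3 CPM. Cells without any UMI of 9 further blood, vessel and stroma genes gave 29 of 45 members higher in null sham and 36 of 46 in null PNX over their controls, where 14.5% and 33.7% of all genes were. The 10 cell-cycle genes were highest in null PNX, at 19.9, 38.9, 7.09 and 189 CPM, and without cells that held any of 6 of them the count over control PNX was 35, where 33% of all genes were higher. Airway cells that hold Cldn4 also meet the cell rule. The 4 club markers, all detected, summed to 5137, 1064, 4747 and 5541 CPM and, in null PNX, to 7979.8 CPM in the Cldn4-positive and 2022 in the Cldn4-zero cells. The 5 ciliated markers summed to 238, 251, 208 and 227 CPM and, in null sham, to 782 CPM in the Cldn4-positive and 185 in the Cldn4-zero cells. Cells that held club markers at 1% of UMIs or more, or any UMI of 4 of the ciliated genes, numbered 431, 87, 469 and 245. Without them, members called higher numbered 30 of 45 for genotype without surgery (14.7% of all genes), 37 of 46 after it (33.9%), 21 of 46 between the Cldn4 classes of null PNX (10.6%) and 28 of 46 between those of null sham (10.6%). The 12 transitional-state markers, which include Cldn4, moved with the members, at 689, 908, 3511 and 14637 CPM, and within null PNX at 6148 CPM in the Cldn4-zero and 20519 in the Cldn4-positive cells. The immediate-early genes, which respond to cell handling, had 1779.8, 895, 1074 and 1702 CPM and the heat-shock genes 239, 549, 409 and 568 CPM. The part of these differences in the members' levels was not tested.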

How the data were processed

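The deposited file is a matrix of UMI counts per gene and cell; the authors made it from 3′ single-cell libraries with Cell Ranger 2.1.0, Seurat 2.3.4 and build mm10, per the submitters' processing notes. The sources used here do not give the annotation release, the kit chemistry or whether doublets were removed. Cells were assigned to libraries by the number at the end of the barcode. No doublets were called; an alternative leaves out the 5% of cells with most UMIs in each library.

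Counts were summed over the alveolar cells of each library and given as counts per 1000000 UMIs (CPM). A 3′ tag is counted once per molecule, so no length scaling was applied. Ratios carry exact (Clopper-Pearson) 95% intervals, as do shares of cells, with exact Poisson intervals for levels; log2 medians use a prior count of 0.5. The script was tested on simulated data. Comparisons between cells thinned to 2000 UMIs leave out shallower cells. Each group is 1 library, so nothing was tested across replicates.

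The 49 members and all lists were chosen with earlier results of these data known. Values in every library are given for members past 1.5-fold, at most the 12 largest per comparison, with others named for contrast. Of the other pathway genes, at most the 3 largest per comparison and direction are named. Related genes were paired for shares after their values were seen. Promoters are RefSeq's for GRCm38.p6; gene positions are from the GENCODE M21 annotation. Python 3.11.15 was used with numpy 2.4.6, scipy 1.17.1 and matplotlib 3.10.9.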

Additional observations from a re-analysis of the deposited data

Results flagged for a closer look

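Ratios on opposite sides of 1, with both counting intervals leaving out 1 and at least 1 of the 2 ratios called, were found for surgery in 3 members. Myh14 was 1.24 times the sham level in control PNX and 0.545 times in null PNX, Flna 1.83 and 0.934 times, and Vasp 0.839 and 2.02 times. Myh14 also met this for genotype, at 1.37 without surgery and 0.602 after it. Each value compares 1 library with 1 library, and the differences between the paired ratios were not tested.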

How the results depend on the processing

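Each comparison was repeated under 13 alternatives. The number of members called higher ranged from 0 to 6 for surgery in controls, 15 to 33 for genotype without surgery, 11 to 27 for surgery in null mice, 28 to 37 for genotype after surgery and 7 to 29 for Cldn4. Of all genes, 0.991 to 7.89% were called higher for surgery in controls and 3.61 to 15.5% for genotype without surgery. That share was 10.7 to 31% for surgery in null mice, 16.5 to 37.2% for genotype after surgery and 3.47 to 19.8% for Cldn4. A 2-fold limit gave 0, 15 and 11 members higher in the first 3 comparisons and 7 for Cldn4, where 0.991%, 3.61%, 10.7% and 3.47% of all genes were. It gave 0 lower in null PNX over null sham or over control PNX, where 4.54% and 5.96% of all genes were. Median-of-ratios scaling gave 3 higher for surgery in controls and 17 in null mice, where 3.37% and 18.9% of all genes were. With cells of 0 Cldn4 UMIs, surgery in null mice gave 11 higher and 2 lower, where 21% and 11% of all genes were. For Cldn4, the Sftpc rule alone gave 9 higher and a total without surfactant and mitochondrial genes 12, where 4% and 6.86% of all genes were. The Actn1 ratio of null PNX to null sham turned under 1 with the Sftpc rule alone, at 0.970, and in cells with 0 Cldn4 UMIs, at 0.703; the cause was not tested. Members called under every alternative numbered 0 of 5, 15 of 31, 9 of 27, 28 of 37 and 6 of 21 in the same order of comparisons. The alternative without cells with airway genes, the Cldn4 comparison within null sham, the counts over all genes beside orders and overlaps, and the shares between related genes were added after seeing the data. No paired analysis was possible because each group holds 1 library. Myl9, Myh10 and Cnn3 had means under 10 CPM in the 5 comparisons and were not called; counts are few for Pdlim7 and Tpm2, with 7 and 21 UMIs in control sham.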
